A study of Mus musculus with 6 samples.

Results

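Fibrillar collagens are the rope-like proteins of the extracellular matrix, and their genes were followed here in infarcted mouse hearts with and without Zeb2 in cardiomyocytes. The members were the rows of the deposited count table whose Ensembl identifier belongs to Col1a1, Col1a2, Col2a1, Col3a1, Col5a1, Col5a2, Col5a3, Col11a1 or Col11a2. All 9 genes were found among the 38293 rows of the table, and 8 of them were among the 14746 genes with enough counts to be tested. Heart tissue was sequenced from 3 Zeb2 fl/fl mice, which the sample labels call WT, and from 3 Zeb2 cKO mice. Both groups carry the floxed Zeb2 allele on a backcrossed C57BL/6J background, and the Zeb2 cKO mice also carry Cre recombinase under the Myh6 promoter (αMHC-Cre), which is active in cardiomyocytes. No group with Cre alone was among the samples. All were adult mice, males according to the methods, with a permanent ligation of the left anterior descending coronary artery, and tissue was taken 14 days after the myocardial infarction (MI). The labels place the tissue in the border region of the infarct, whereas the methods place it in the remote zone. Each library came from 1 mouse.

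A fibrillar collagen is made of 3 chains wound into a long triple helix, and many such helices pack side by side into a fibril. Type I collagen, built from the chains of Col1a1 and Col1a2, and type III collagen, built from Col3a1 alone, make up most fibrils of the heart and of its scar, and cardiac fibroblasts are their main source. Type V collagen (Col5a1, Col5a2 and, in some tissues, Col5a3) and type XI collagen (Col11a1 and Col11a2, which in cartilage pair with a chain from Col2a1) lie inside the fibrils, where they start fibril growth and limit its width. Type II collagen (Col2a1) is the main collagen of cartilage.

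The promoters of 4 members are shown because the levels of Col1a2, Col3a1 and Col11a1 followed one pattern across the libraries described below, while those of Col5a3 did not. Each is the stretch of 250 bases before the RefSeq start of the gene in GRCm38.p6, which can differ from the gene start of the annotation given further on, written 5′ to 3′ on the strand of the gene, and capitals mark the matches to the motifs searched for on both strands.
Col1a2 promoter, chr6:4505368-4505617, plus strand: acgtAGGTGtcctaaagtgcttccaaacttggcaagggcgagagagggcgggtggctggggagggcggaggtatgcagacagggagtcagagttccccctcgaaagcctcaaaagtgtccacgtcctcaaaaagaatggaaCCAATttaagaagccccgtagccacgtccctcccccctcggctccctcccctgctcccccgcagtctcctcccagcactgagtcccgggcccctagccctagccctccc
Col3a1 promoter, chr1:45311288-45311537, plus strand: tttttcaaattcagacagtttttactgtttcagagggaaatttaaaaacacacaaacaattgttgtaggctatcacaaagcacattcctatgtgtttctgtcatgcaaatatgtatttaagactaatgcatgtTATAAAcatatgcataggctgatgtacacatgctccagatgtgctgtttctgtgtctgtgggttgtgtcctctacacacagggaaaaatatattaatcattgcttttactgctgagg
Col11a1 promoter, chr3:114030290-114030539, plus strand: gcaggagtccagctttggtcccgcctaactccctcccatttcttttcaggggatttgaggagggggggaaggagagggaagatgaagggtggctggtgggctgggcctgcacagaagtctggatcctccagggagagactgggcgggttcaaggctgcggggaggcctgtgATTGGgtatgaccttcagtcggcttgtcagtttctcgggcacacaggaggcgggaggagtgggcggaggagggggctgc
Col5a3 promoter, chr9:20815068-20815317, minus strand: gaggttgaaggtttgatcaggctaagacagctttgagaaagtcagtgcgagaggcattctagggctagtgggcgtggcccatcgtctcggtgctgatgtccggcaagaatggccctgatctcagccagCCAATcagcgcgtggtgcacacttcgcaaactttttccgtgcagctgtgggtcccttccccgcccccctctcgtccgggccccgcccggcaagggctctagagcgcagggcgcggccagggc
RefSeq promoters were at hand for 6 of the 9 members, the others being those of Col5a1 and Col11a2. The E-box that ZEB proteins bind, CACCTG, was in 0 of the 6 windows and in 17.2% of the 32851 promoter windows of the same length. Its shorter form CACCT, every match to the longer one included, was in 2 of the 6 windows, those of Col1a2 and Col11a2, beside 46.0% of all windows. The binding box of factor NF-Y, CCAAT, was in 3 of the 6 and in 33.9% of all windows. It began 109 bases before the start of Col1a2, 122 bases before that of Col5a3 and, on the opposite strand, 79 bases before that of Col11a1. A core promoter element, TATAAA, was in 2 of the 6, at 117 bases before the start of Col3a1 and 143 bases before that of Col11a2, and in 12.4% of all windows. These matches describe the letters of the windows alone.

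Total counts lay between 37288174 and 51136331 per library, of which 14301225 to 19024394 were outside the mitochondrially encoded genes, so the spread between mice rather than counting error limits all but the lowest members. Levels are given as CPM, the counts scaled by the library size after TMM normalization, and values of single libraries follow the order of the replicates. The Zeb2 fl/fl libraries held Zeb2 itself at 61.3, 116 and 71.9 CPM, and the Zeb2 cKO libraries held it at 59.55, 72.6 and 66.5 CPM. Its groups overlapped. The log2 fold change was -0.33 ± 0.248 (standard error), and -0.0058 when Zeb2 fl/fl replicate 2 was left out, so a lower Zeb2 level was not detectable in the RNA of the whole tissue. Zeb2 fl/fl replicate 2 stood apart from the other libraries in many genes: in 5.95% of the 14746 tested genes, and in 6 of the 8 tested members, it was above 2 times the highest of the other 5. The tissue carried high levels of cardiomyocyte RNA in every library, with Myh6, the main myosin heavy chain of the adult mouse heart, at 2767 CPM in that library and 6733 to 8979 CPM in the others. The log2 fold changes of the tested members are therefore given below with and without Zeb2 fl/fl replicate 2. Tests and counts of genes are given with all libraries unless stated. In whole tissue, fewer cells of a type and less RNA per cell cannot be told apart.

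Col3a1, Col1a2 and Col1a1, the genes of the type III and type I chains, were the most abundant members. Col3a1 (ENSMUSG00000026043, chromosome 1, 45311538 to 45349706, plus strand) measured 721.7, 4872 and 822.3 CPM in Zeb2 fl/fl mice, against 615.3, 779.2 and 903.0 CPM in Zeb2 cKO mice. Zeb2 fl/fl replicate 2 was 6.34 times the mean of the other 5 libraries, and these 5 overlapped between the genotypes. Col1a2 (ENSMUSG00000029661, chromosome 6, 4504814 to 4541544, plus strand) measured 239.0, 1465 and 266.5 CPM in Zeb2 fl/fl mice, against 203.1, 244.8 and 307.7 CPM in Zeb2 cKO mice. Col1a1 (ENSMUSG00000001506, chromosome 11, 94936224 to 94953042, plus strand) measured 121.6, 724.6 and 128.6 CPM in Zeb2 fl/fl mice, against 85.35, 105.5 and 160.7 CPM in Zeb2 cKO mice. Both genes of type I collagen thus had the same single high library, at 5.81 times the mean of the others for Col1a2 and 6.02 times for Col1a1. Among the Zeb2 cKO libraries replicate 3 was highest for all 3 genes, by 1.68 times the mean of replicates 1 and 2 for Col1a1 and by 1.37 times for Col1a2.

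Among the genes of type V collagen, Col5a1 and Col5a2 shared this pattern and Col5a3 did not. Col5a1 (ENSMUSG00000026837, chromosome 2, 27886425 to 28039514, plus strand) measured 93.5, 279.5 and 91.6 CPM in Zeb2 fl/fl mice, against 56.8, 74.3 and 119.3 CPM in Zeb2 cKO mice. Col5a2 (ENSMUSG00000026042, chromosome 1, 45374321 to 45503282, minus strand), a neighbour of Col3a1 on its chromosome, measured 103.7, 518.1 and 125.6 CPM in Zeb2 fl/fl mice, against 79.2, 97.5 and 141.3 CPM in Zeb2 cKO mice. Zeb2 fl/fl replicate 2 was 3.21 times the mean of the other libraries for Col5a1 and 4.73 times for Col5a2, a smaller excess than for the type I and III genes. Col5a3 (ENSMUSG00000004098, chromosome 9, 20770050 to 20815067, minus strand), which encodes the third type V chain, measured 35.2, 22.4 and 28.7 CPM in Zeb2 fl/fl mice, against 17.7, 27.9 and 32.5 CPM in Zeb2 cKO mice. Here Zeb2 fl/fl replicate 2 was the lowest of its group, at 0.789 times the mean of the other 5 libraries, and it lay within their range.

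The genes of type XI and type II collagen were low, and Col11a1 had the most uneven levels among the 8 tested members. Col11a1 (ENSMUSG00000027966, chromosome 3, 114030540 to 114220718, plus strand) measured 1.115, 48.6 and 1.69 CPM in Zeb2 fl/fl mice, against 1.40, 1.64 and 1.82 CPM in Zeb2 cKO mice. Zeb2 fl/fl replicate 2 held 2132 counts (95% Poisson interval 2042 to 2224) where the other 5 libraries held between 42 and 98, so counting error does not span the gap. Its level there was 31.7 times their mean. Col11a2 (ENSMUSG00000024330, chromosome 17, 34039437 to 34066685, plus strand), the partner chain, measured 1.09, 0.775 and 1.04 CPM in Zeb2 fl/fl mice, against 0.779, 1.52 and 0.9305 CPM in Zeb2 cKO mice. Zeb2 fl/fl replicate 2 held 34 counts of Col11a2 (95% Poisson interval 23.55 to 47.5), among 39 to 66 in the others, so the 2 genes of type XI collagen did not share a pattern. Col2a1 (ENSMUSG00000022483, chromosome 15, 97975602 to 98004695, minus strand) had 4, 42 and 2 counts in Zeb2 fl/fl and 2, 0 and 4 counts in Zeb2 cKO hearts. It did not pass the filter on low counts and was not tested, and its 42 counts (95% Poisson interval 30.3 to 56.8) again lay in Zeb2 fl/fl replicate 2. A count of 0 allows up to 3.69 counts by the same interval. All these intervals cover counting error only.

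**Figure D1:**
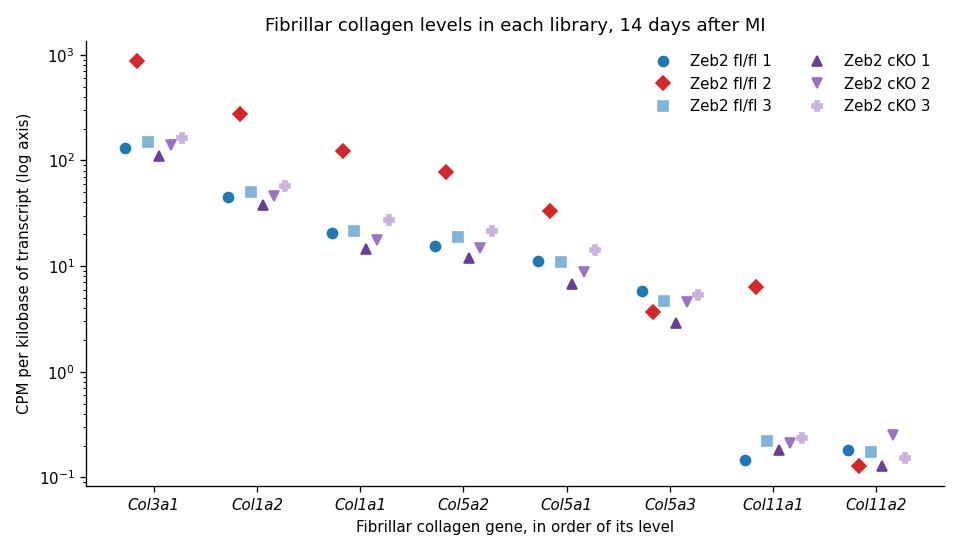
Level of each tested fibrillar collagen in each library (points, coloured by library), as CPM per kilobase of transcript on a log axis, with the genes in the order of their mean over the 5 libraries other than Zeb2 fl/fl replicate 2. Zeb2 fl/fl replicate 2 (diamonds) lies above the other 5 libraries for Col3a1, Col1a2, Col1a1, Col5a2, Col5a1 and Col11a1 and not for Col5a3 or Col11a2.

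Levels can be compared between genes per kilobase of the longest coding transcript. On this scale the order was Col3a1, Col1a2, Col1a1, Col5a2 and Col5a1 in 6 of 6 libraries. Over the 5 libraries without Zeb2 fl/fl replicate 2, the means were 138.1 ± 19.4 CPM per kilobase for Col3a1, 47.2 ± 7.19 for Col1a2 and 20.3 ± 4.73 for Col1a1 (SD, n = 5). For the type V chains they were 16.5 ± 3.67 for Col5a2, 10.4 ± 2.78 for Col5a1 and 4.64 ± 1.09 for Col5a3. Col1a1 and Col5a2, and Col5a2 and Col5a1, had overlapping ranges over these 5 mice, although their order held within each. Col11a1, at 0.20 ± 0.0365, and Col11a2, at 0.177 ± 0.0459 CPM per kilobase, overlapped too, and Col11a1 was the higher of them in 4 of 6 libraries. These gaps depend on the length used. With the union of all annotated exons as the length, chosen after the data were seen, Col1a2 was at 20.3 and Col1a1 at 18.4 CPM per kilobase, and Col11a1 and Col11a2 changed places.

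The make-up of the fibrillar collagen RNA was far more even than its amount. Summed over the 9 members, Zeb2 fl/fl mice had 1317, 7932 and 1466 CPM, against 1060, 1332 and 1667 CPM in Zeb2 cKO mice. The members took 2.37% of the counts outside the mitochondrially encoded genes in Zeb2 fl/fl replicate 2 and 0.286% to 0.471% in the other libraries. Per kilobase, Col3a1 made up 56.3% to 62.8% of this RNA, Col1a2 19.6% to 20.5% and Col1a1 7.67% to 9.41% in the 6 libraries. The genes of type I collagen together kept a share of 28.4 ± 0.247% (SD, n = 3) in Zeb2 fl/fl mice, against 28.4 ± 0.996% (SD, n = 3) in Zeb2 cKO mice. Type V genes took 8.26% in Zeb2 fl/fl replicate 2 and 11.7% to 14.3% elsewhere. Col5a3 alone was at 0.263% there against 1.57% to 2.53%, and Col11a1 was at 0.455% against 0.0639% to 0.0987%. Thus the high library lay outside the other mice in the shares of the minor chains and inside their range in that of Col1a1 and Col1a2, with Col3a1 at 62.8% there and at 56.3% to 60.3% in the others.

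**Figure D2:**
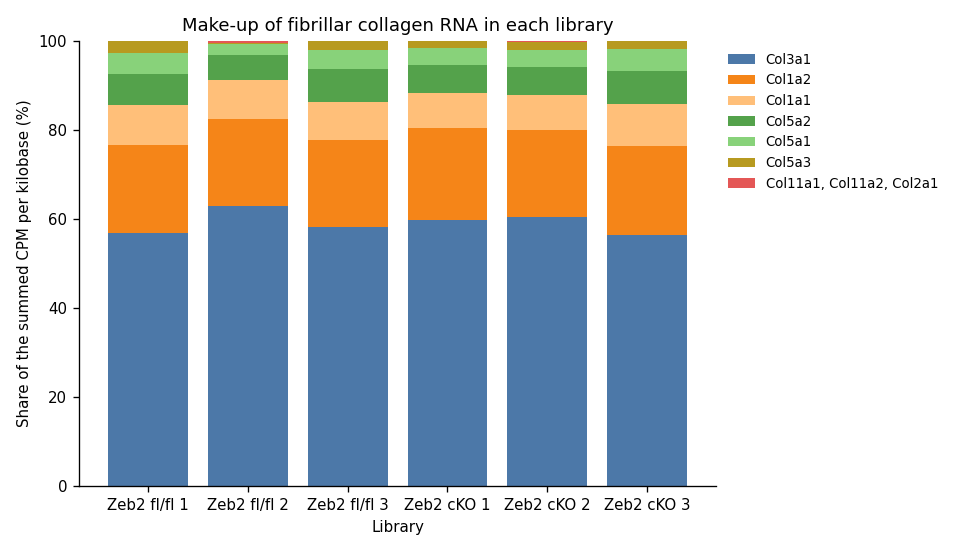
Share of each member in the summed CPM per kilobase of the fibrillar collagens (stacked bars, in %), for each of the 6 libraries. Col3a1, Col1a2 and Col1a1 fill a similar part of every bar, whereas the type V genes take 8.26% in Zeb2 fl/fl 2 and at least 11.7% in the others.

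The comparison of Zeb2 cKO with Zeb2 fl/fl hearts asked whether collagen RNA differed 14 days after MI when Zeb2 was deleted from cardiomyocytes. No member passed: 0 of the 8 tested genes had an adjusted p under 0.05 in the quasi-likelihood test of edgeR after Benjamini-Hochberg adjustment, as did 0% of all 14746 tested genes. An unadjusted p under 0.05 was reached by 1 member, Col11a1, and by 1.90% of all tested genes. DESeq2 called 0 members and 2 genes in all. Its unadjusted p was under 0.05 for 1 member, Col5a2, and for 361 of all 14746 tested genes, and it gave no p for Col11a1. The groups overlapped in all 9 members, beside 2.97% of tested genes in which every Zeb2 cKO library was lower and 3.39% in which every one was higher. The exact permutation test of single genes, two-sided, gave p from 0.4 to 0.8 for the tested members and 0.2 for Col2a1, with 0.1 as the smallest it can give for 3 mice against 3.

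Log2 fold changes of Zeb2 cKO over Zeb2 fl/fl were below zero for 7 of the 8 tested members, with wide errors. For Col1a1 the Zeb2 cKO mean was 117.2 ± 39.0 CPM and the Zeb2 fl/fl mean 324.9 ± 346.1 CPM (SD, n = 3 each). The log2 fold change ± standard error was -1.47 ± 0.725 for Col1a1 (adjusted p = 0.957 in edgeR), -1.38 ± 0.710 for Col1a2 and -1.48 ± 0.749 for Col3a1. In each of these genes the SD of the Zeb2 fl/fl group was larger than the difference between the group means. In the type V genes it was -0.89 ± 0.502 for Col5a1, -1.23 ± 0.629 for Col5a2 and -0.15 ± 0.259 for Col5a3. That of Col11a1 was -3.40 ± 1.40 (unadjusted p = 0.0459, adjusted p = 0.957 in edgeR), and that of Col11a2 was 0.15 ± 0.316.

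The differences of the type I and III genes, Col5a1, Col5a2 and Col11a1 rested on Zeb2 fl/fl replicate 2, and that of Col5a3 did not. Without that library, the log2 fold change was -0.091 for Col1a1 (standard error 0.242), -0.0017 for Col1a2 and -0.0082 for Col3a1. It was -0.15 for Col5a1, -0.11 for Col5a2 and -0.29 for Col5a3 (standard error 0.237), while Col11a1 turned to 0.21 and Col11a2 was at 0.010. A log2 fold change under -0.2, the size of change that the study used, was seen in 6 of the 8 tested members and in 22.6% of all tested genes. Without that library 1 member, Col5a3, was under -0.2, beside 11.7% of all tested genes. The median over the tested members was -1.31 with all libraries and -0.049 without it, and the median over all tested genes was -0.0069 and 0.0025. Removing any of the other 5 libraries left the log2 fold change of Col1a1 between -1.86 and -1.29. For the 9 members together, the summed level was 1353 ± 304.0 CPM in Zeb2 cKO mice, against 3572 ± 3777 CPM in Zeb2 fl/fl mice (SD, 3 mice per genotype), which is a ratio of 0.379. The ratio was 0.972 without Zeb2 fl/fl replicate 2.

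**Figure D3:**
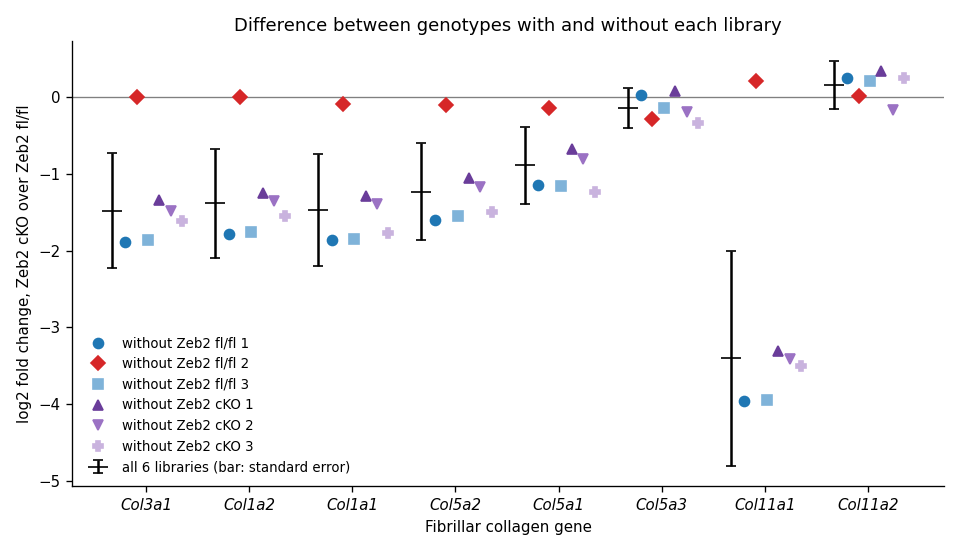
Log2 fold change of Zeb2 cKO over Zeb2 fl/fl for each tested member, with all 6 libraries (black, bars show the standard error) and with each library left out in turn (coloured points). Without Zeb2 fl/fl 2 (diamonds) the values lie between -0.29 and 0.21, whereas leaving out another library keeps Col1a1 between -1.86 and -1.29.

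Ratios within a library do not depend on its size, and 12 were set by list: 8 between members and 4 of Col1a1 or Col3a1 to a fibroblast gene. The groups overlapped in 12 of 12, and the exact permutation test gave an adjusted p of 0.9 for each (Benjamini-Hochberg over the 12, two-sided, n = 3 each). Col1a1 to Col3a1, the balance of type I to type III, was at 0.158, 0.140 and 0.147 per kilobase in Zeb2 fl/fl and at 0.130, 0.127 and 0.167 in Zeb2 cKO hearts. The library with the highest collagen level therefore had a middle value of this ratio, and the log2 difference between groups was -0.076 with all libraries and -0.12 without it. Col1a1 to Col1a2, the balance of the type I chains, was at 0.459, 0.446 and 0.435 in Zeb2 fl/fl and at 0.379, 0.389 and 0.471 in Zeb2 cKO hearts. Its level was 0.430 on average over the 6 libraries with the longest transcripts as lengths and 0.902 with exon unions, so the level of this ratio is uncertain while its spread between mice is not affected. With the same change of length, Col1a1 to Col3a1 went from 0.145 to 0.231 on average.

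The minor chains set the high library apart in these ratios. Col5a3 to Col5a1 was at 0.110 per kilobase in Zeb2 fl/fl replicate 2 and at 0.374 to 0.518 in the other 5. Col11a1 to Col5a1 was at 0.191 there and at 0.0131 to 0.0270 in the others. Col5a1 to Col1a1 was at 0.272 there against 0.470 to 0.5425, and Col5a2 to Col1a1 was at 0.640 against 0.763 to 0.874. In the other 5 libraries Col5a2 and Col1a1 kept their ratio within 1.15 times from the lowest to the highest library, across both genotypes. Col5a1 to Col5a2 was at 0.425 in Zeb2 fl/fl replicate 2 and at 0.566 to 0.711 in the others, and Col5a2 to Col3a1 was at 0.0893 against 0.105 to 0.131. The log2 difference between the groups changed sign without that library for all 6 of these ratios.

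The 4 ratios to fibroblast genes were also highest in Zeb2 fl/fl replicate 2. This does not hold for every fibroblast gene of the marker lists, since in that library Pdgfrl was at 9.99, Cthrc1 at 16.8, Comp at 17.1, Ltbp2 at 7.70 and Fn1 at 5.80 times the mean of the other 5, beside 6.02 times for Col1a1 (named after their values were seen). Pdgfra, a receptor that marks cardiac fibroblasts, was at 105.8 CPM there and at 41.3 to 52.3 CPM in the others. Col1a1 to Pdgfra was at 7.90 per kilobase in this library and at 1.88 to 4.05 in the other 5, and Col3a1 to Pdgfra was at 56.6 against 14.4 to 24.2. Among the other 5, Zeb2 cKO replicate 3 had the highest value of both. Col1a1 to Dcn (decorin, a proteoglycan on the fibril surface) was at 0.195 against 0.0515 to 0.126. Col1a1 to Postn (periostin, made by activated fibroblasts) was at 0.398 against 0.208 to 0.335, the narrowest of these 4 ratios over the 6 libraries, which differed by up to 1.91 times. The log2 difference of Zeb2 cKO to Zeb2 fl/fl was -0.74 for Col1a1 to Pdgfra and -0.66 for Col3a1 to Pdgfra, and -0.32 and -0.20 without Zeb2 fl/fl replicate 2. For Col1a1 to Dcn it was -0.70 and for Col1a1 to Postn -0.063, and -0.40 and 0.16 without that library.

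**Figure D4:**
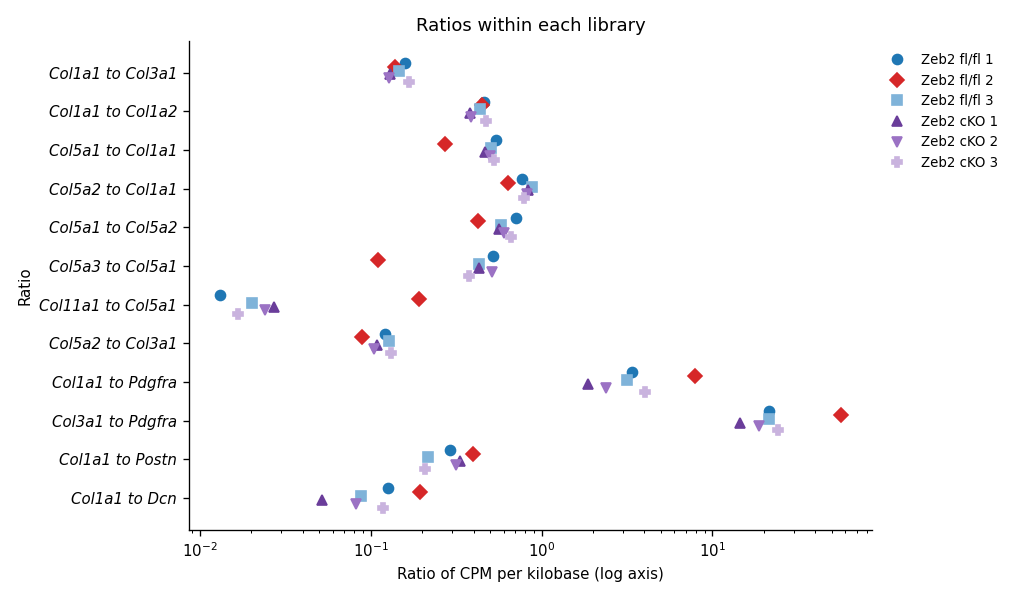
Each of the 12 ratios in each library (points, coloured by library), as the ratio of CPM per kilobase on a log axis. Col1a1 to Col3a1 and Col1a1 to Col1a2 stay within 1.31 and 1.24 times over all 6 libraries, while Zeb2 fl/fl 2 (diamonds) is outside the range of the other 5 for the remaining ratios.

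Genes that fold, process, crosslink, bind and degrade collagen were listed by role, 71 genes in 7 lists, of which 70 were tested. An adjusted p under 0.05 was reached by 0 of them in edgeR, and an unadjusted one by 1 of 70, beside 1.90% of all tested genes. That 1 was Lox, the copper enzyme that starts the crosslinking of collagen. Lox measured 14.4, 209.1 and 19.9 CPM in Zeb2 fl/fl mice, against 9.13, 10.9 and 21.6 CPM in Zeb2 cKO mice. Its log2 fold change was -2.54 ± 1.05 (standard error), and -0.30 when Zeb2 fl/fl replicate 2 was left out. In all, 51 of the 70 were under -0.2 in log2 fold change, beside 22.6% of all tested genes. Without that library 6 of them were, beside 11.7% of all tested genes. The median of the 70 was -0.40 with it and 0.028 without it, and 56 of the 70 were highest in it. Groups without overlap were seen in 3 genes, all lower in Zeb2 cKO hearts, which is 3 of 70 beside 2.97% lower and 3.39% higher of all tested genes. These were Mmp13, a collagenase, and, named after their values were seen, Colgalt2, which adds galactose to collagen, and Mia3, which loads procollagen for export.

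The summed levels of each role are given next for Zeb2 fl/fl replicate 2 beside the other libraries. The summed level of the 5 crosslinking enzymes was 398.3 CPM in it and 55.9 to 99.85 CPM in the others, and that of the 14 fibril binding proteins was 6000 against 1224 to 1722 CPM. The 20 genes of collagen folding summed to 845.7 against 551.1 to 624.6 CPM, and the 10 collagen receptors to 542.5 against 335.4 to 443.3 CPM. Procollagen processing (8 genes) was at 333.5 against 101.8 to 142.4 CPM, and collagen degradation (12 genes) at 1242 against 507.0 to 588.2 CPM. The rise was broad among the fibril binding proteins, where 13 of 14 were above 2 times the highest other library in Zeb2 fl/fl replicate 2. This held for 3 of the 5 crosslinking, 3 of the 20 folding and 4 of the 10 receptor genes. It held for 1 of the 8 processing genes and 6 of the 11 tested degradation genes. No difference between roles was tested. Among the crosslinking enzymes, Lox gave 209.1 CPM of the sum in that library, while Loxl2 was at 1.62 and Loxl4 at 1.23 times the mean of the others. In the lists of folding and receptor genes, P4ha3 was at 13.1, Itga11 at 6.09 and Lair1 at 3.93 times that mean. The genes of this paragraph other than Lox and P4ha3 were named after their values were seen.

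By the smallest unadjusted p in each list, the genes besides Lox and Mmp13 were the following. Loxl1, a further crosslinking enzyme, had a log2 fold change of -1.16, and -0.16 without Zeb2 fl/fl replicate 2. For P4ha3 and P4ha1, catalytic subunits of the prolyl hydroxylases that stabilise the triple helix, the values were -2.47 and -0.26, and -0.27 and -0.16 without it. P4ha3 was at 4.28 CPM in that library and at 0.180 to 0.469 CPM in the others. For Adamts2, which removes the amino-terminal propeptide, it was -1.09, and for Tll2, a protease related to the one that removes the other propeptide, 1.00. Without that library they were 0.018 and 0.50. Comp and Fmod, which bind fibrils and aid their assembly, had log2 fold changes of -2.61 and -2.31, and 0.15 and 0.32 without it. Itga2, a collagen-binding integrin chain, and Mrc2, an endocytic collagen receptor, were at -0.85 and -0.70, and at -0.24 and -0.12 without it. Mmp13 was at -0.57 and, without that library, at -0.59, and Timp1, an inhibitor of the matrix metalloproteinases, was at -1.31 and then -0.0996. Mmp13 was low, at 0.398, 0.501 and 0.651 CPM in Zeb2 fl/fl and at 0.340, 0.369 and 0.335 CPM in Zeb2 cKO hearts. Col24a1 and Col27a1, fibrillar collagens of a separate branch of the family, were at -0.77 and -0.37, and at -0.48 and -0.032 without it. None of these passed the adjusted threshold in edgeR.

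Fibroblast, activated fibroblast and macrophage markers were high together with the collagens in Zeb2 fl/fl replicate 2. Over Zeb2 cKO replicates 1, 2 and 3 the summed collagens rose, at 1060, 1332 and 1667 CPM. The fibroblast markers fell there, at 1747, 1546 and 1504 CPM, as did the macrophage markers, at 307.7, 297.3 and 283.4 CPM. The activated fibroblast markers rose, at 505.8, 623.7 and 1032 CPM. The 15 fibroblast markers summed to 3138 CPM in Zeb2 fl/fl replicate 2, to 1312 and 1525 CPM in the other Zeb2 fl/fl libraries and to 1504 to 1747 CPM in Zeb2 cKO hearts, and 13 of 15 were highest in that library. The 15 markers of activated fibroblasts summed to 661.7 to 3133 CPM in Zeb2 fl/fl and to 505.8 to 1032 CPM in Zeb2 cKO hearts, with 13 of the 14 tested ones highest in replicate 2. Macrophage markers, 12 genes, lay at 237.1 to 914.4 CPM in Zeb2 fl/fl and at 283.4 to 307.7 CPM in Zeb2 cKO hearts, and 11 of 12 were highest in it. Cardiomyocyte markers, 15 genes, had a lower sum in this library, 38280 CPM, of which the titin gene Ttn alone made up 22880 CPM, beside 65790 and 71340 CPM in the other Zeb2 fl/fl libraries and 58600 to 71190 CPM in Zeb2 cKO hearts. Of these markers 2 were highest in it, the natriuretic peptide genes Nppa (716.5 CPM against 131.5 to 337.2 CPM) and Nppb (317.9 against 117.3 to 224.4 CPM). Among the Zeb2 cKO libraries, replicate 3 was 1.83 times the mean of the others for the activated fibroblast markers and 0.913 times for the fibroblast markers. No marker of these 4 lists was without counts, and their part in the collagen levels was not tested. The lists share Dcn and Ddr2 (fibroblast markers) and Comp, Fn1, Aspn and Fap (activated fibroblast markers) with the collagen assembly lists.

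The summed cartilage markers were also highest in this library, mostly through Comp, while 4 of the 7 tested ones were highest in it. The 15 cartilage markers summed to 181.8 CPM in Zeb2 fl/fl replicate 2 and to 26.9 to 38.7 CPM in the other 5 libraries, of which Comp made up 146.5 CPM in replicate 2. Acan, the main proteoglycan of cartilage, was at 3.12 CPM in this library and at 0.0599 to 0.346 CPM in the others, and Sox9, the transcription factor that drives Col2a1 and Col11a2 in cartilage, was at 13.5 against 1.88 to 4.45 CPM. Sox6, a partner of Sox9 in cartilage, was lowest in this library, at 8.29 CPM against 13.6 to 16.7 CPM, and Col9a2 was highest in Zeb2 cKO replicate 3. Among the markers with too few counts to be tested, Matn3 had 42 counts in Zeb2 fl/fl replicate 2 and 0 to 6 in the others. Chad had 49 against 3 to 18 counts, and Col10a1 had 6 against 0 or 1. Hapln1 went the other way, at 0.251 times the mean of the others. Snorc was at 0 counts in every library, Matn1 was at 3 or fewer counts in each, and 7 of the 15 cartilage markers passed the filter for testing. Endothelial markers (12 genes) lay at 489.6 to 731.9 CPM in Zeb2 fl/fl and at 626.2 to 740.3 CPM in Zeb2 cKO hearts, and mural cell markers (12 genes) at 1202 to 1808 and at 1584 to 1834 CPM, with Zeb2 fl/fl replicate 2 lowest for both sums. Epicardial markers (9 genes in the table) lay at 10.55 to 20.1 and at 13.0 to 15.65 CPM. Skeletal muscle markers lay at 653.4 to 1485 and at 869.9 to 1801 CPM, of which Acta1 and Ckm, also made by heart muscle, were nearly all, while Actn3 and Myod1 were at 3 or fewer counts in each library.

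**Figure D5:**
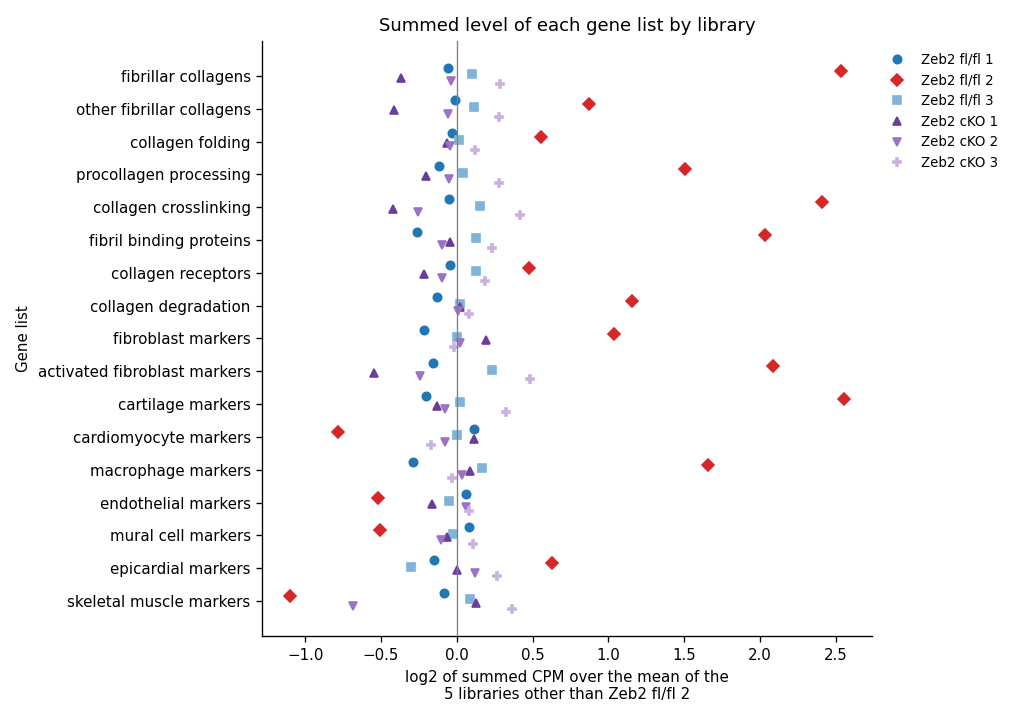
Summed CPM of each gene list in each library (points, coloured by library), as log2 of the ratio to the mean of the 5 libraries other than Zeb2 fl/fl 2. Zeb2 fl/fl 2 (diamonds) is highest for the collagens, each list of collagen assembly and the fibroblast, activated fibroblast, cartilage, macrophage and epicardial markers, and lowest for the cardiomyocyte, endothelial, mural and skeletal muscle markers.

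Genes with the most similar pattern were found by the root mean square difference of log2 CPM, each gene centred on its mean, over all tested genes. Over the 6 libraries the pattern of Col3a1 was nearest to that of Col1a2 (0.058), then to Itgbl1 (0.087) and Fbln5 (0.111), an organiser of elastic fibres. Col1a1 was nearest to Col1a2 (0.118), to Thbs1 (0.1253), which encodes thrombospondin-1, and to Fn1 (0.131), which encodes fibronectin. Col11a1 was nearest to Sfrp2 (0.254), a secreted modulator of Wnt signalling, to 1500015O10Rik (0.441) and to Comp (0.447). Col5a3 was nearest to Col4a2 (0.0587), a collagen of basement membranes, to Fam171a2 (0.0643) and to Rin3 (0.0693). Its distance to other members was 0.3125 to Col11a2, 0.773 to Col5a1 and 1.105 to Col1a1. A single library sets most of these distances, and over the 5 libraries without it the nearest genes were other ones. They were Nek6, Smc2 and Zdhhc15 for Col1a1 and Nynrin, Srgap1 and Plscr1 for Col3a1. For Col5a3 they were Nhs, Cic and Ccdc8, and for Col11a1 they were Nucb2, Gm10232 and Rbm47. Between members, Col3a1 and Col1a2 stayed closest in these 5 libraries (0.0386), followed by Col1a1 and Col5a2 (0.0675) and by Col1a1 and Col5a1 (0.0706). With so few libraries and so many genes, these are descriptions only.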

How the data were processed

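RNA-seq of 3 Zeb2 fl/fl (labelled WT) and 3 Zeb2 cKO hearts was analysed. According to the methods, stranded libraries were made from RNA depleted of ribosomal RNA, sequenced as single-end reads of 75 bases and counted on Gencode M4 with the STAR workflow. The authors deposited raw counts per gene, without normalization. The submitters' processing notes name GRCm38, mm10 and DESeq 1.2, and the treatment of multi-mapping reads is not given in the sources used here. Groups came from the sample labels, and 0 count columns were unmatched.

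From these counts, symbols and lengths were taken from Gencode M21 (GRCm38), by gene identifier. Of the listed genes, Ctage5 and Wisp1 were matched by a RefSeq synonym, and Muc16 was not matched. Counts were normalized with TMM and tested with edgeR 4.0.16 (R 4.3.3, glmQLFit and glmQLFTest with genotype) after filterByExpr with its defaults (minimum count 10, minimum total count 15), with Benjamini-Hochberg adjustment over all 14746 genes kept. DESeq2 1.42.0 was an alternative. The steps were tested on simulated data. Ratios and single genes were compared by exact permutation tests. Copies were searched with BLAST 2.17.0 at 75 bases or more and 95% identity or more. Of the longest transcripts, 2.53% of Col3a1 matched Gm47302, which lies inside it, and 2.59% of Col5a1 matched its antisense genes 2810430I11Rik and Gm13372. Counts of Col5a1 are uncertain to that extent if strand was not used in counting. Col5a3 also overlaps an antisense gene, but it had no match in this search, so no extent can be given for it. Alternatives covered the normalization, the library size without mitochondrially encoded genes, the filter, the dispersion, the test, a pseudocount of 0.5 for ratios, the replicate number, the transcript length and leaving out each library.

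The members, gene lists, ratios and motifs were chosen with earlier results of these data known. Named were all members, the genes of the ratios, 2 genes per assembly list by smallest unadjusted p with Col24a1 and Col27a1, Zeb2, the 3 genes most like each of 4 members, and markers at 0 or on which a result turns. Protein sequences were not used here.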

Additional observations from a re-analysis of the deposited data

How the results depend on the processing

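No fibrillar collagen or gene of collagen assembly passed an adjusted p of 0.05 under any alternative run. The exact tests of the ratios cannot go under 0.1 with 3 mice against 3, so that they missed it says nothing of their stability. Of 242 values recomputed, 13 turned sign and 2, the ratio levels with exon-union lengths, moved as given above. The other 227 kept their sign or were counts of called genes or ratios that stayed at 0 and have no direction. Each of the 13 came from leaving out 1 library, and 8 of them from leaving out Zeb2 fl/fl replicate 2. A kept sign is not a kept size. Without that library the log2 fold change went from -1.38 to -0.0017 for Col1a2 and from -1.48 to -0.0082 for Col3a1.

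On leaving out each library in turn, the log2 fold change ran from -1.86 to -0.091 for Col1a1, from -1.78 to -0.0017 for Col1a2, from -1.89 to -0.0082 for Col3a1, from -1.24 to -0.15 for Col5a1 and from -1.60 to -0.11 for Col5a2, with the value nearest to zero always without Zeb2 fl/fl replicate 2. It ran from -0.34 to 0.068 for Col5a3, above zero without Zeb2 fl/fl replicate 1 (0.027) or Zeb2 cKO replicate 1, from -3.95 to 0.21 for Col11a1, and from -0.17 (without Zeb2 cKO replicate 2) to 0.34 for Col11a2. The adjusted p lay between 0.596 and 0.9998 in these edgeR fits. The log2 ratio of the summed level ran from -1.80 to -0.040, beside -1.40 with all libraries. The log2 difference ran from -0.074 to 0.42 for Col5a1 to Col1a1, from -0.0036 to 0.22 for Col5a2 to Col1a1, from -0.070 to 0.30 for Col5a1 to Col5a2, from -0.12 to 0.9996 for Col5a3 to Col5a1, from -1.485 to 0.45 for Col11a1 to Col5a1, from -0.12 to 0.14 for Col5a2 to Col3a1 (-0.064 without Zeb2 cKO replicate 3) and from -0.28 to 0.16 for Col1a1 to Postn (0.15 without Zeb2 cKO replicate 3).

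With no filter on low counts, Col2a1 had a log2 fold change of -3.135 (unadjusted p = 0.0221, adjusted p = 0.858 in edgeR). Replicate numbers 1, 2 and 3 occur in both groups, and same-numbered libraries deviated from their group means with correlations of 0.078, -0.13 and -0.074. Zeb2 fl/fl replicate 2 enters every Zeb2 fl/fl mean, so these values cannot decide whether the numbers mark pairs. With the replicate block, 0 members were called, 247 genes in all had an unadjusted p under 0.05 beside 280 without it, and the log2 fold change was -0.95 for Col1a1, -0.82 for Col1a2, -0.86 for Col3a1, -0.75 for Col5a1, -0.85 for Col5a2, -0.16 for Col5a3, -1.38 for Col11a1 and 0.11 for Col11a2. The members at 100 or fewer counts, Col2a1, Col11a2 and, outside Zeb2 fl/fl replicate 2, Col11a1, are those that depth limits.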
